A study of Mus musculus with 6 samples.

Results

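The genes described here encode 10 subunits of the Polycomb repressive complexes: Ezh1, Ezh2, Eed, Suz12, Jarid2, Bmi1, Ring1, Rnf2, Cbx7 and Cbx8. They were chosen by symbol, and all 10 were among the 11644 genes measured, with at least 73 reads in every library. The cells were MLL-ENL/NrasG12D cells, a mouse leukemia line. In both groups the cells carry an activated Nras and the fusion protein MLL-ENL, which joins part of the protein MLL to an elongation factor partner. Poly-A RNA was sequenced from 3 libraries of cells given 5 µM EPZ015666 for 72 h and 3 libraries of cells given its solvent, DMSO. Treatment was repeated on day 2, and EPZ015666 inhibits the catalytic activity of PRMT5, the main enzyme that adds symmetric dimethyl groups to arginines. The libraries are called independent replicates, without a statement of what was repeated, so the p-values measure the spread between these libraries only.

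Polycomb proteins keep developmental genes silent. Polycomb repressive complex 2 (PRC2) methylates lysine 27 of histone H3 through EZH1 or EZH2, which work only when bound to EED and SUZ12. Polycomb repressive complex 1 (PRC1) attaches ubiquitin to histone H2A through RING1 or RNF2 paired with a PCGF protein such as BMI1. In the canonical form of PRC1, a CBX protein reads the methyl mark left by PRC2. In blood cells BMI1 and EZH2 are known for sustaining stem cells and for silencing the INK4 locus, and MLL-AF9 leukemias depend on PRC2 in mouse models.

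Sequencing depth was 11335948 to 15551525 reads assigned to the measured genes in the EPZ015666 libraries and 15505127 to 19197912 in the DMSO libraries. Values are normalized read counts, which are reads divided by a size factor of the library. The general blood cell marker Ptprc had 6867 ± 251 normalized counts with EPZ015666 and 6900 ± 413 with DMSO (SD, n = 3 each). Ptprc was listed as a myeloid marker. Of the 9 analysed genes of that list it was the 1 that did not pass the test described below, while 5 rose and 3 fell. With EPZ015666 the mean of Lyz2, the largest rise in the list, was 11.9 times the DMSO mean. That of Cebpa was 0.689 times the DMSO mean. Mpo, the largest fall, was at 0.404 times, although its libraries overlapped between the groups. DMSO library 2 lay farther from the EPZ015666 libraries than DMSO libraries 1 and 3 did for Eed, Jarid2, Ring1 and Cbx7, the members that passed, so their values are also given without it. Of the listed markers, 2 of 8 erythroid and megakaryocytic genes, 1 of 9 lymphoid genes and 3 of 7 stromal and endothelial genes were analysed here. The first 2 lists had summed levels of 32.7 to 54.5 and 18.2 to 19.4 normalized counts with EPZ015666, and of 9.78 to 17.7 and 8.15 to 17.8 with DMSO. In these lists Itga2b passed as higher, at low counts of 29.8 ± 10.3 with EPZ015666 and 6.79 ± 2.90 with DMSO (limma adjusted p = 0.00145). Gp9 and Lck did not pass. In the third list Pecam1, which myeloid cells also make, gave nearly all of the signal.

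The transcripts of the PRC2 methyltransferases Ezh1 and Ezh2 and of the PRC1 ligase Rnf2 had means of 1.07, 1.07 and 0.953 times the DMSO mean with EPZ015666 and did not pass the test. Eed rose to 1.29 times the DMSO mean, while Cbx7 fell to 0.551 times, Ring1 to 0.739 times and Jarid2 to 0.860 times the DMSO mean. Suz12, Bmi1 and Cbx8 did not pass either. Calls were made at an adjusted p of 0.05 with limma, fitted on log2(normalized count + 1) over all genes with Benjamini-Hochberg adjustment. Of all genes, 46.5% passed in either direction, 23.6% higher and 22.9% lower. The members' count of 4 of 10 was therefore near the share of all genes, and the pattern described here is which subunits changed and by how much. The median log2 fold change was -0.10 over the 10 members and 0.00 over all genes, and the median size of the change was 0.15 against 0.31.

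**Figure D1:**
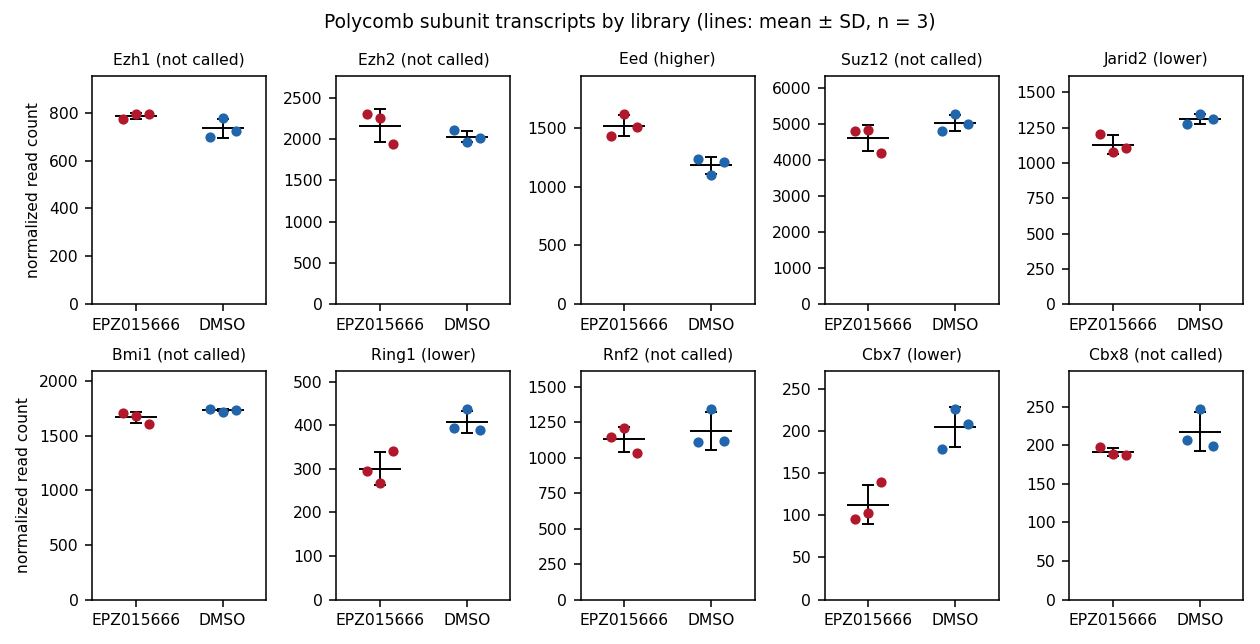
Normalized read counts (y axes, starting at 0) of the 10 Polycomb subunits in each library of EPZ015666-treated and DMSO-treated cells. Points are libraries, the long line is the mean and the bars are the SD (n = 3). The Eed points with EPZ015666 all lie above those with DMSO, and the Jarid2, Ring1 and Cbx7 points all lie below. Those of Bmi1 and Cbx8, which were not called, also all lie below. Of all genes, 56.0% had groups that did not overlap.

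**Figure D2:**
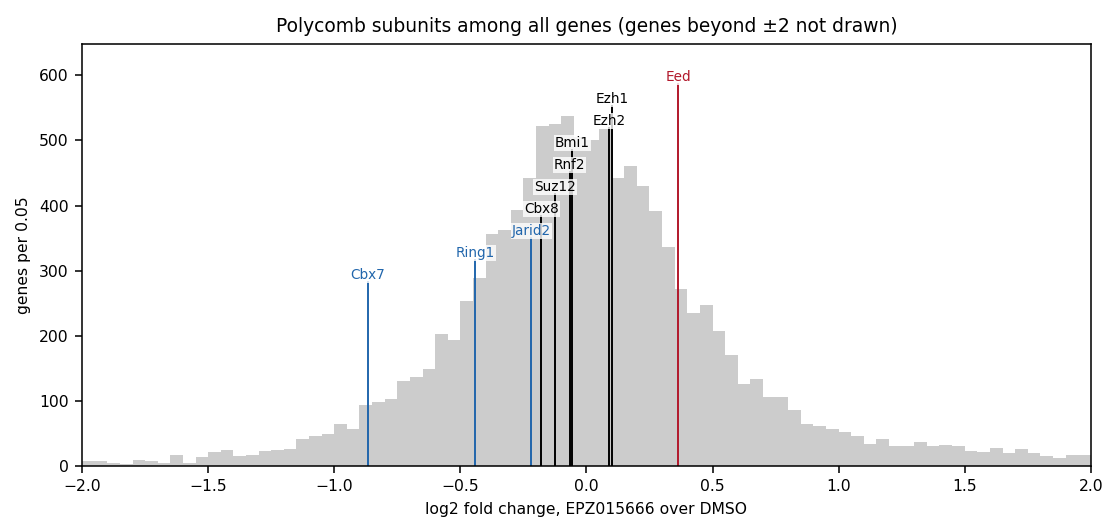
Histogram of the log2 fold changes (EPZ015666 over DMSO) of all genes in bins of 0.05, with the 10 subunits marked, higher calls in red, lower calls in blue and genes not called in black. Cbx7 lies toward the low end, with 4.99% of genes below it, and the methyltransferase genes Ezh1 and Ezh2 lie near the centre.

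The 3 members that were called under all of the 13 alternative settings were Eed, Ring1 and Cbx7, and 32.2% of all genes were called in every setting in which they were fitted. Eed is on chromosome 7 (89954654 to 89980983, minus strand, mm10), Ring1 on chromosome 17 (34020792 to 34024680, minus strand) and Cbx7 on chromosome 15 (79915807 to 79971119, minus strand). Because these 3 genes passed in every setting, the 250 bases before their RefSeq start sites (build GRCm38.p6) are shown, 5′ to 3′ on the gene's strand. Capitals mark matches to the GC box GGGCGG or to CCAAT on either strand. The windows are chr7:89980977-89981226 for Eed, chr17:34024681-34024930 for Ring1 and chr15:79932647-79932896 for Cbx7. The RefSeq start of Cbx7 lies inside the longer GENCODE gene given above.
Eed: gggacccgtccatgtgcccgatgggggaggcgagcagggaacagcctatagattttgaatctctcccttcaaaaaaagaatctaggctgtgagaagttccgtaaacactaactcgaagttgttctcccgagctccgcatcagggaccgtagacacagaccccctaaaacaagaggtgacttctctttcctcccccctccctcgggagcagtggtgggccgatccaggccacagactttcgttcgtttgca
Ring1: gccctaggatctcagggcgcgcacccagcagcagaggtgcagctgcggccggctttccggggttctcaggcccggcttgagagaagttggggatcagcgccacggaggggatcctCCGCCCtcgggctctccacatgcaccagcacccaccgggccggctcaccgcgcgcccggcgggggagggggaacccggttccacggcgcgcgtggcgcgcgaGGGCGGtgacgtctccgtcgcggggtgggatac
Cbx7: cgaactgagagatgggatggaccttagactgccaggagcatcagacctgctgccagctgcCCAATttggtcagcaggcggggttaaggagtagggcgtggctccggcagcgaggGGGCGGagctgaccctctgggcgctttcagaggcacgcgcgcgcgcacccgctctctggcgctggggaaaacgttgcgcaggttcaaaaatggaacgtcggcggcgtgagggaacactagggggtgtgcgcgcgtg
The Ring1 window is 73.6% G or C and holds 30 CpG dinucleotides, against 64.8% and 23 for Cbx7 and 54.4% and 12 for Eed. The median over 32851 promoter windows of the same length was 52.4% and 6 CpG. GGGCGG occurs at 2 places in the Ring1 window, at 1 in that of Cbx7 and at none in that of Eed, and 32.7% of all windows hold it. CCAAT occurs once in the Cbx7 window, and 33.8% of all windows hold it. Among the members that did not pass, GGGCGG had 6 matches in Bmi1, 3 in Suz12, 2 in Rnf2, 1 in Cbx8 and none in Ezh1 or Ezh2. CCAAT was found in Ezh2, Suz12 and Cbx8. Windows of the members that did not pass held 14 (Ezh1) to 37 (Suz12) CpG. Ring1 and Cbx7 lie within that range and Eed lies below it. Jarid2, which also passed, has 2 windows with 23 and 22 CpG, each with 1 GGGCGG match, and CCAAT in the first. Whether these features differ between called and uncalled members was not tested. Among the 10 members, the MYC-type E-box CACGTG was found in the windows of Bmi1 and Cbx8 (6.02% of all windows), and neither gene passed the test. The E2F-type motif TTTNGCGC was found in no member's window (1.13% of all windows). These matches describe the letters of the windows and do not show binding.

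Among the PRC2 core genes, Ezh2, the main H3 methyltransferase subunit of dividing cells, had 2300.4, 2249 and 1937 normalized counts in the EPZ015666 libraries, against 2104, 1963 and 2016 in the DMSO libraries. EPZ015666 library 3 lay below every DMSO library and libraries 1 and 2 above them, so the groups overlapped. The log2 fold change was 0.09, with an unadjusted 95% interval of -0.10 to 0.28 (limma adjusted p = 0.422). Its paralog Ezh1, which has weaker methyltransferase activity and is known from resting cells, had 773, 794 and 793 with EPZ015666, against 699.5, 779 and 724 with DMSO. Those groups also overlapped, and the log2 fold change was 0.10 with an interval of -0.08 to 0.28 (limma adjusted p = 0.336). The ratio of Ezh1 to Ezh2 was 0.336, 0.353 and 0.409 with EPZ015666 and 0.333, 0.397 and 0.359 with DMSO. Its log2 difference of 0.01 was well within the spread between libraries (exact two-sided permutation test, p = 0.9, smallest possible p = 0.1).

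Eed encodes the WD-repeat subunit that binds the methyl mark and stimulates the enzyme. It had 1433, 1618 and 1511 normalized counts in the EPZ015666 libraries, against 1239, 1095 and 1208 in the DMSO libraries. Every EPZ015666 value lay above every DMSO value, and 56.0% of all genes had groups that did not overlap. The means were 1521 ± 92.8 with EPZ015666 and 1181 ± 75.6 with DMSO (SD, n = 3 each), a log2 fold change of 0.36 ± 0.08 (SE, limma adjusted p = 0.00421). Without DMSO library 2, the lowest for this gene, the log2 fold change was 0.31 (limma adjusted p = 0.0132). Eed, Ezh2 and Suz12 share 261, 174 and 178 exon bases with noncoding genes on the opposite strand, whose reads were not analysed here and cannot be told apart where counting ignores strand.

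Suz12, which encodes the zinc finger subunit that holds PRC2 together, had the highest level per kilobase of exon among the members. It had 4823, 4845 and 4198 normalized counts with EPZ015666, against 4817, 5279 and 4995 with DMSO. Only EPZ015666 library 3 lay below the DMSO range, and the log2 fold change was -0.12 with an interval of -0.32 to 0.07 (limma adjusted p = 0.269). Eed and Suz12, whose proteins sit together in the complex, thus had log2 fold changes of opposite sign, of which that of Eed passed the test. The difference between them was not tested.

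Jarid2 encodes a substoichiometric DNA-binding cofactor that helps bring PRC2 to its sites. It had 1204, 1074 and 1106 normalized counts with EPZ015666, against 1277, 1345 and 1314 with DMSO. The groups did not overlap, but the fall was small, with a log2 fold change of -0.22 ± 0.08 (SE, limma adjusted p = 0.0414). This call was lost with DESeq2 (adjusted p = 0.0649), without EPZ015666 library 2 (limma adjusted p = 0.151) or 3 (0.0787), and without DMSO library 1 (0.0722), 2 (0.0951) or 3 (0.107).

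Of 10 other PRC2 genes listed, 9 were analysed, and 3 of them fell, none rose and 6 did not pass. The falls were Lcorl (458 ± 80.3 with EPZ015666, 599 ± 62.8 with DMSO) and Epop (381 ± 50.6 with EPZ015666, 481 ± 28.7 with DMSO), which encode accessory proteins of PRC2, and the histone chaperone gene Rbbp7 (4126 ± 438 with EPZ015666, 4970.4 ± 324 with DMSO; SD, n = 3 each). Their limma adjusted p lay at 0.0233, 0.0263 and 0.0362, and none of these calls held with each library left out. The call on Lcorl was lost without EPZ015666 library 1 (limma adjusted p = 0.0767) or 3 (0.0850) or DMSO library 3 (0.0975). Those on Epop and Rbbp7 were lost without EPZ015666 library 2 (0.102 and 0.0938) or 3 (0.0847 and 0.111) or DMSO library 1 (0.0953 and 0.138) or 3 (0.0562 and 0.0662). Rbbp4, the close relative of Rbbp7, had a value of 7879 ± 451 with EPZ015666 and 6749 ± 579 with DMSO (log2 fold change 0.23, limma adjusted p = 0.0684). It passed with DESeq2 (adjusted p = 0.0426) and without DMSO library 1 (limma adjusted p = 0.0439). Aebp2, whose protein is found with JARID2 in the same PRC2 subtype, had means of 2229 normalized counts with EPZ015666 and 2446 with DMSO (limma adjusted p = 0.192).

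Ring1 and Rnf2 are the catalytic paralogs of PRC1. Rnf2, which encodes RING1B, the more active ubiquitin ligase, had 1147, 1208 and 1035 normalized counts in the EPZ015666 libraries, against 1107, 1338 and 1113 in the DMSO libraries. These values overlapped, and the log2 fold change was -0.07 with an interval of -0.28 to 0.15 (limma adjusted p = 0.600). The direction of this small difference turned without DMSO library 2, where it was 0.02. Rnf2 shares 158 exon bases with Trmt1l on the opposite strand, and that gene had 743 normalized counts with EPZ015666 and 787 with DMSO.

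Ring1, the gene of the second ligase subunit RING1A, had 294, 267 and 340.1 normalized counts with EPZ015666, against 394, 436 and 389.8 with DMSO. All EPZ015666 values lay below all DMSO values, with means of 300.4 ± 36.9 with EPZ015666 and 407 ± 25.6 with DMSO (SD, n = 3 each). The log2 fold change was -0.44 ± 0.11 (SE, limma adjusted p = 0.00786), and -0.39 without DMSO library 2 (limma adjusted p = 0.0210). EPZ015666 library 3 was the highest of its group for Ring1, and also for Cbx7. The ratio of Ring1 to Rnf2 was 0.256, 0.221 and 0.328 with EPZ015666, against 0.356, 0.326 and 0.350 with DMSO. Its log2 difference of -0.37 did not pass (exact two-sided permutation test, p = 0.2, adjusted over 4 pairs p = 0.267), and with 3 libraries a group no p below 0.1 was possible.

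Bmi1 encodes the PCGF partner best known in blood stem cells and leukemia. It had 1712, 1679 and 1612 normalized counts with EPZ015666, against 1741, 1722 and 1736 with DMSO. The groups did not overlap, yet the log2 fold change was -0.06, with an interval of -0.22 to 0.11 (limma adjusted p = 0.561). Pcgf2, the gene of its closest paralog MEL18, made up 1.29% of the summed PCGF level per kilobase of exon with EPZ015666 and 2.58% with DMSO. It had 32.7, 26.6 and 35.5 normalized counts with EPZ015666, against 50.5, 75.9 and 87.4 with DMSO. It fell by 1.12 on the log2 scale (SE 0.24, limma adjusted p = 0.00246). These counts were lower than those of every member, Cbx7 included, so the fall of Pcgf2 and the next ratio rest on few reads. The log2 ratio of Bmi1 to Pcgf2 was 1.07 higher with EPZ015666 than with DMSO (exact two-sided permutation test, p = 0.1, the smallest this design allows, adjusted over 4 pairs p = 0.2).

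Cbx7 and Cbx8 encode chromodomain readers of canonical PRC1. Cbx7 had 96.0, 102 and 139 normalized counts in the EPZ015666 libraries, against 179, 225 and 208 in the DMSO libraries. The EPZ015666 values all lay below the DMSO values, with means of 112 ± 23.2 with EPZ015666 and 204 ± 23.6 with DMSO (SD, n = 3 each). The log2 fold change was -0.87 ± 0.16 (SE, limma adjusted p = 0.00115), the largest in size among the 10 members, and -0.79 without DMSO library 2 (limma adjusted p = 0.00220). These values rest on 94, 73 and 129 reads in the EPZ015666 libraries. Cbx7 shares 100 exon bases with Apobec3 on the opposite strand, and the strand setting of the counting is not given. Reads in these shared bases could therefore have been left out or counted for the other gene. Apobec3 had 1962 ± 83.2 normalized counts with EPZ015666 and 2237 ± 82.1 with DMSO, and did not pass (limma adjusted p = 0.0625).

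Cbx8, known in MLL-fusion leukemia as a partner of the fusion's elongation machinery, had 197, 189 and 187 normalized counts with EPZ015666, against 206, 246 and 199 with DMSO. The groups did not overlap, but DMSO library 2 stood above the other libraries. The log2 fold change was -0.18 with an interval of -0.45 to 0.09 (limma adjusted p = 0.252). The ratio of Cbx7 to Cbx8 was 0.487, 0.541 and 0.741 with EPZ015666, against 0.866, 0.915 and 1.04 with DMSO, so it was lower in every EPZ015666 library. The log2 difference was -0.69 (exact two-sided permutation test, p = 0.1, adjusted over 4 pairs p = 0.2).

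Beside Cbx7, 2 further genes of chromodomain subunits fell. Cbx6 had 1048 ± 88.1 normalized counts with EPZ015666 and 1402 ± 80.7 with DMSO, and Cbx2 had 196 ± 21.2 with EPZ015666 and 284 ± 31.7 with DMSO (limma adjusted p = 0.00222 and 0.00524). Cbx2 and Cbx8 both lie on chromosome 11, where Cbx2 starts at 119022962 and Cbx8 ends at 119040969, and Cbx6 and Cbx7 both lie on chromosome 15.

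The PCGF genes, grouped after the values were seen, encode the proteins that define the PRC1 subtypes. Of these genes 1 of the 6 rose, 3 fell and 2 did not pass, beside 46.5% of all genes that passed in either direction. Bmi1 was their main transcript per kilobase, at 52.1% ± 2.11 of the summed PCGF level with EPZ015666 and 48.2% ± 0.777 with DMSO (SD, n = 3 each). With all annotated exons in place of the basic GENCODE transcripts, its share was 61.3% with EPZ015666 and 59.4% with DMSO, and the libraries overlapped. Pcgf6, of the subtype that binds E2F6 and MGA, fell to 267 ± 22.9 normalized counts with EPZ015666, against 425 ± 1.65 with DMSO (limma adjusted p = 0.000280). Pcgf3 rose to 1008 ± 64.5, against 738 ± 39.5 with DMSO (limma adjusted p = 0.00135). Pcgf5 fell to 311 ± 17.3, against 382 ± 7.43 with DMSO (limma adjusted p = 0.0256). That call was lost with DESeq2 (adjusted p = 0.0571), without EPZ015666 library 1 (limma adjusted p = 0.0515) or 3 (0.0647), and without DMSO library 1 (0.0742) or 3 (0.0784). Pcgf1 had means of 121 with EPZ015666 and 141 with DMSO and did not pass (limma adjusted p = 0.232).

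**Figure D3:**
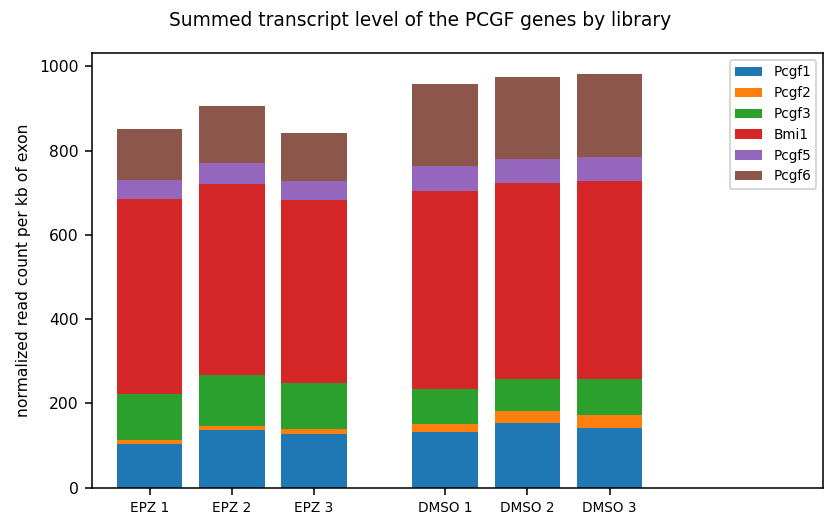
Stacked bars of the level of each PCGF gene in each library, in normalized read counts per kilobase of exon, with the EPZ015666 libraries left of the DMSO libraries. The summed level lay between 842 and 905 in EPZ015666 libraries and between 959 and 982 in DMSO libraries, and Bmi1 was the largest part of the PCGF sum in each library.

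Of 8 analysed genes among 9 other canonical PRC1 genes, 3 fell (Cbx2, Cbx6 and Pcgf2), none rose and 5 did not pass. The Polyhomeotic genes Phc2 and Phc3, which let PRC1 particles join into larger bodies, were among those that did not pass. Phc2 had 785 ± 20.8 normalized counts with EPZ015666 and 895 ± 67.3 with DMSO (limma adjusted p = 0.0968), and Phc3 had 443 ± 62.3 with EPZ015666 and 577 ± 155 with DMSO (limma adjusted p = 0.0969). Phc3 passed as lower without DMSO library 1 (limma adjusted p = 0.0423) or 2 (0.0424).

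All 17 listed genes of variant PRC1 were analysed, and 3 rose (Pcgf3, Yaf2 and Fbrs), 6 fell and 8 did not pass. The call on Fbrs was lost without EPZ015666 library 3 (log2 fold change 0.26 in place of 0.41, limma adjusted p = 0.103) and without DMSO library 1 (0.0760) or 2 (0.0595). E2f6, a repressor of the E2F family, had 711 ± 5.97 normalized counts with EPZ015666 and 956 ± 54.7 with DMSO (SD, n = 3 each; limma adjusted p = 0.00138). The scaffold gene Dcaf7 fell to 3014 ± 297, against 4004 ± 221 with DMSO, and the BCL6 corepressor Bcor to 2106 ± 148, against 2653 ± 26.7 with DMSO. Usp7, a deubiquitinase that is also known to act on p53 and MDM2, fell to 3790 ± 242, against 4834 ± 176 with DMSO. The limma adjusted p of Dcaf7, Usp7 and Bcor were 0.00314, 0.00440 and 0.00478. Kdm2b, which recruits variant PRC1 to CpG islands, had means of 2785 normalized counts with EPZ015666 and 3143 with DMSO and did not pass (limma adjusted p = 0.135). Without EPZ015666 library 1, Kdm2b passed as lower (limma adjusted p = 0.0435). Mga, the partner of E2F6 and PCGF6, had means of 2643 with EPZ015666 and 2777 with DMSO (limma adjusted p = 0.613).

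PR-DUB is the deubiquitinase that removes the PRC1 mark from H2A. Its catalytic gene Bap1 had 1799, 1751 and 1845 normalized counts with EPZ015666, against 1750, 1650 and 1657 with DMSO (limma adjusted p = 0.328). Foxk2, one of the forkhead genes of the complex, had means of 1928 with EPZ015666 and 2024 with DMSO (limma adjusted p = 0.458). Of 9 analysed genes among 10 listed, 4 fell, none rose and 5 did not pass. Asxl1, the activating partner of BAP1 that is often mutated in myeloid disease, fell to 1774 ± 35.6, against 2441 ± 296 with DMSO (limma adjusted p = 0.00189). Hcfc1, Foxk1 and Ogt were the other falls, with log2 fold changes of -0.45, -0.37 and -0.32 (limma adjusted p = 0.00454, 0.00796 and 0.0300). DMSO library 3 was the highest of all libraries for each of these genes. Without it the fall of Ogt was lost (limma adjusted p = 0.145), as it was without DMSO library 1 (0.0620) or EPZ015666 library 1 (0.0789) or 2 (0.0884).

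The demethylases of H3K27, which remove the PRC2 mark, were represented by Kdm6a and Kdm6b. Kdm6a (UTX) had 3098, 3075 and 3057 normalized counts in the EPZ015666 libraries, against 2273, 2451 and 2266 in the DMSO libraries. It rose by 0.40 ± 0.08 on the log2 scale (SE, limma adjusted p = 0.00114). Kdm6b had 149.7 ± 7.50 with EPZ015666 and 163 ± 40.9 with DMSO (limma adjusted p = 0.702). Over the 45 analysed genes of these lists outside the 10 members, 4 rose and 16 fell, and 14 of the 20 calls were made under every alternative setting in which the gene was fitted. The share called was 44.4%, near the 46.5% of all genes, of which 23.6% passed higher and 22.9% lower. Of all genes, 32.2% were called in every setting in which they were fitted. The median log2 fold change was -0.19, against 0.00 over all genes.

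**Figure D4:**
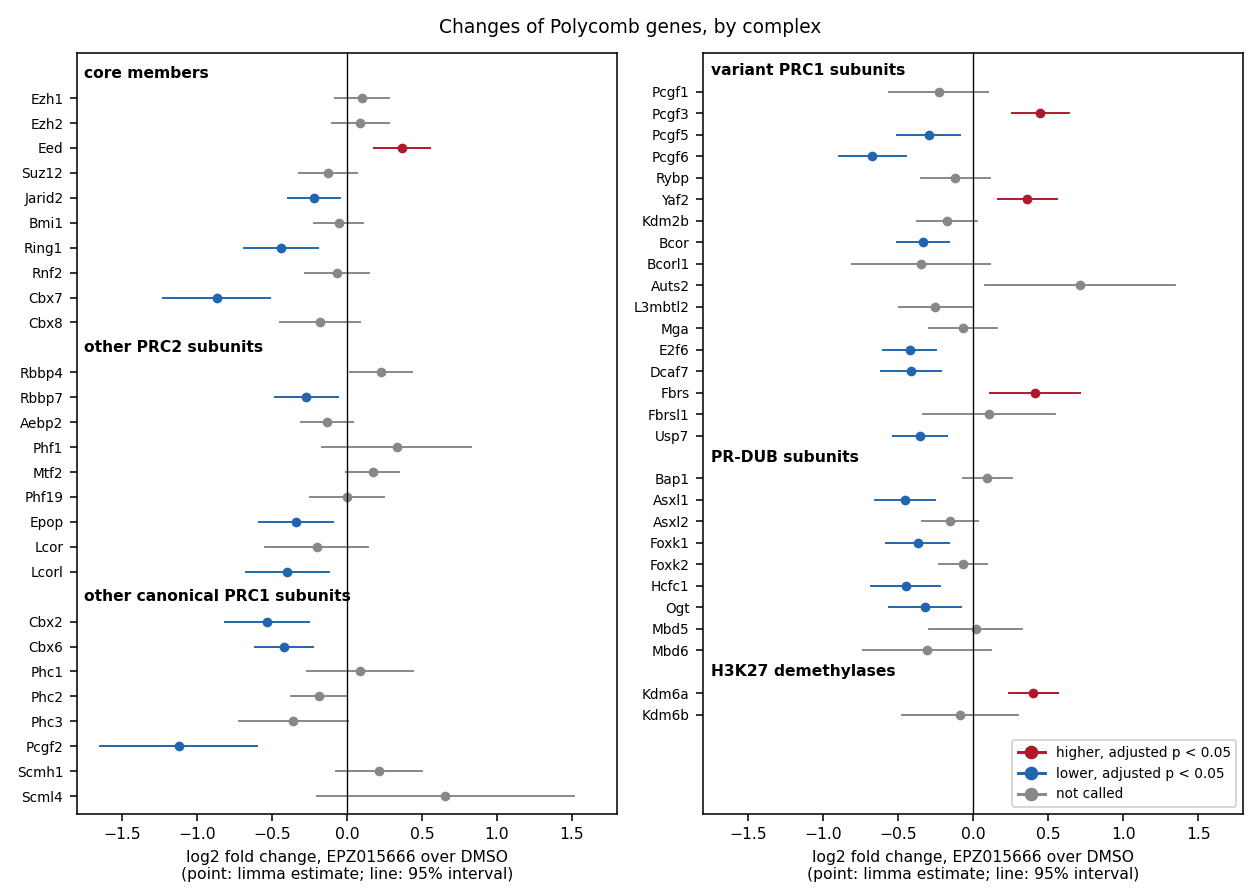
Log2 fold changes (EPZ015666 over DMSO) of the analysed Polycomb genes by complex, with limma estimates as points and unadjusted 95% intervals as lines. Higher calls are red, lower calls blue and genes not called grey. Among the 10 members Cbx7 lies lowest, at -0.87, and Eed, Pcgf3 and Kdm6a are among the few genes to the right of 0 that were called.

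Genes that Polycomb is known to silence were mostly outside the measured set. Of 35 listed, 4 were analysed, and every gene in the table has 10 or more reads in its highest library, so a weakly expressed gene may have entered the table only through the group where it was higher. The cell cycle inhibitor genes Cdkn2a and Cdkn2b, neighbours in the INK4 locus on chromosome 4, are textbook targets of BMI1 and CBX7. Cdkn2a had 419.8, 398.5 and 370.2 normalized counts with EPZ015666, against 255, 230.1 and 232 with DMSO, and rose by 0.73 ± 0.10 on the log2 scale (SE, limma adjusted p = 0.000191). Cdkn2b had 74.6, 85.3 and 81.8 with EPZ015666, against 14.7, 15.3 and 3.93 with DMSO, and rose by 2.91 ± 0.40 on that scale (SE, limma adjusted p = 0.000133). The DMSO values of Cdkn2b were low, so the size of its rise is less certain. Counts were per gene, so the transcripts of Cdkn2a were not told apart. The other 2 genes, Lhx2 and Cdkn1c, had at most 18.2 normalized counts in any library and did not pass. Cbx7 fell and Bmi1 did not pass, and a link of either to the rises of Cdkn2a and Cdkn2b was not tested.

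Per kilobase of exon, the members followed the same order of levels in both groups. With EPZ015666 the order was Suz12 (1057 ± 84.0 normalized counts per kilobase), Ezh2 (772 ± 70.1), Eed (736 ± 44.9), Bmi1 (451 ± 13.8), Rnf2 (338 ± 26.2), Jarid2 (183 ± 11.0), Ring1 (148 ± 18.1), Ezh1 (129 ± 1.94), Cbx8 (53.4 ± 1.49) and Cbx7 (33.0 ± 6.80; SD, n = 3 each). In DMSO the order ran from Suz12 at 1150.4 ± 53.3 to Cbx7 at 59.9 ± 6.94. Neighbours whose libraries overlapped were Ezh2 and Eed with EPZ015666, and Jarid2 and Ring1 as well as Cbx8 and Cbx7 with DMSO. The exon lengths came from the basic GENCODE transcripts. With all annotated exons, a choice added after the data had been seen, Bmi1 and Eed came before Ezh2 in both groups and Ezh1 before Ring1 with EPZ015666.

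Markers of proliferation and of myeloid cells also changed in this comparison. Of all genes, 23.6% passed higher and 22.9% lower, and 32.2% were called in every setting in which they were fitted. Of 15 listed proliferation genes, 11 fell and 1 rose, of which 6 falls and not the rise were called under all 13 alternatives. Their summed level was 66558 to 79807 normalized counts with EPZ015666, against 96145 to 114844 with DMSO. Of 9 analysed genes among 10 myeloid markers, 5 rose and 3 fell, of which 4 rises and 1 fall were called under all 13 alternatives. The summed level was 31852 to 36302 with EPZ015666, against 16972 to 19079 with DMSO. The part of these shifts in the Polycomb results was not tested. In RNA from whole cultures, fewer cells of a type and less RNA per cell cannot be told apart.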

How the data were processed

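RNA-seq libraries (6 in all) were grouped by their titles. The authors deposited 1 table of normalized read counts (a signal: reads per gene divided by a size factor per library), as worked out from the values. In each library 100% of values were whole multiples of 1 step (tolerance 1e-06), so whole reads were recovered. Per the submitters' processing notes, build mm10 and the tools DESeq 1.16.0, HTSeq 0.6.0, TopHat2 2.0.10 and CASAVA 1.8.2 were used, with no role stated. For annotation and strand setting, nothing is given in the sources used here.

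Groups were compared with R 4.3.3 and limma-trend 3.58.1, two-sided, over 11644 genes with no further filter, on values of log2(normalized count + 1). The residual degrees of freedom were 4. Fold changes on this scale understate changes of low genes. Functions were tested on simulated data. On the recovered reads, edgeR 4.0.16 called 5412 genes and DESeq2 1.42.0 called 4999. Other alternatives were TMM scaling, pseudocounts of 0.5 and 5, a minimum mean of 100 normalized counts, a replicate block, and each library left out. Within groups, chi-square per degree of freedom between libraries was 9.29 to 20.5, so none was treated as a duplicate. Coordinates and exon lengths are from GENCODE mouse release 21 (mm10), and promoter sequences from RefSeq.

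All members were named; from each other Polycomb list, up to 6 called genes with the smallest adjusted p and up to 2 uncalled genes with the highest mean. Pcgf1, Pcgf5, Yaf2, Fbrs, Apobec3, Trmt1l and the cell type markers named here were named after their values were seen. The members and lists were chosen with earlier results of these data known. One listed gene is not reported here.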

Additional observations from a re-analysis of the deposited data

How the results depend on the processing

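Eed stayed higher and Ring1 and Cbx7 stayed lower at an adjusted p below 0.05 under all 13 alternatives, with log2 fold changes of 0.31 to 0.41, -0.53 to -0.36 and -1.03 to -0.77. Jarid2 was called in 7 of 13. Ezh1, Ezh2, Suz12, Bmi1, Rnf2 and Cbx8 were called in none of the 13. Members called higher numbered 1 in each alternative, and members called lower 2 or 3. Over all genes the count was 4145 to 5346 with a library left out, lowest without EPZ015666 library 2, and 4479 to 5932 otherwise. Among other Polycomb genes, 11 to 18 fell and 3 to 5 rose. The replicate block called 5932 genes and changed no member's call; among the other named Polycomb genes it made Phc3 pass (adjusted p = 0.0129). Same-numbered libraries deviated together with correlations of 0.247, 0.0735 and 0.263 across genes, and each library correlated best with its own number, which is a hint from the data and not from the labels. The log2 difference of the Ezh1 to Ezh2 ratio ran from -0.0705 to 0.0789 with a library left out, and was negative without EPZ015666 library 3 (-0.0705) or DMSO library 1 (-0.0484); the other ratios kept their sign. Among the 10 members depth limits Cbx7 most, at 73 to 279 reads per library.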
